A study of Mus musculus with 4 samples.

Results

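The 10 genes described here encode the NF-kB transcription factor subunits (Nfkb1, Nfkb2, Rel, Rela and Relb) and regulators that the pathway itself switches on (Nfkbia, Nfkbie, Nfkbiz, Bcl3 and Tnfaip3). They were chosen by gene symbol, and all 10 were found once each among the 34745 genes of the deposited table. RNA was sequenced from cultured macrophages of mice, bone marrow-derived per the study's text, in 2 genotypes with 2 libraries each. The samples labelled WT were, per the study's text, from G3bp1 f/f mice, whose G3bp1 gene is flanked by loxP sites, and those labelled G3bp1mac-/- (KO) were from such mice crossed to Lyz2-Cre. Lyz2 is the lysozyme M gene, so deletion is not limited to macrophages but can also occur in neutrophils. The labels name no treatment and give neither the age nor the pooling of the mice, and they number the libraries 1 and 2 within each genotype without saying what the number stands for. Nothing says that the samples of a genotype came from separate mice or cultures, so p-values measure only the spread between these samples.

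NF-kB factors are dimers of Rel-family proteins that resting cells hold in the cytoplasm, bound to inhibitors of the IkB family. When Toll-like receptors or cytokine receptors are engaged, the IkB kinase complex marks the inhibitors for degradation, and the dimers enter the nucleus and bind kB sites in the promoters of inflammatory genes. Many of the pathway's own parts are among these targets, so that transcripts of IkB proteins, of the A20 enzyme and of several subunits rise in activated macrophages and limit or prolong the response.

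In GRCm38 coordinates, as the deposited table gives them, the subunit genes lie at chr3:135584655-135691547 (Nfkb1, ENSMUSG00000028163, minus strand, 25 exons in the main transcript), chr19:46304737-46312090 (Nfkb2, ENSMUSG00000025225, plus strand, 22 exons), chr11:23736847-23770970 (Rel, ENSMUSG00000020275, minus strand, 10 exons), chr19:5637483-5648130 (Rela, ENSMUSG00000024927, plus strand, 11 exons) and chr7:19606217-19629438 (Relb, ENSMUSG00000002983, minus strand, 12 exons). The regulators lie at chr12:55489411-55492647 (Nfkbia, ENSMUSG00000021025, minus strand, 6 exons), chr17:45555716-45563169 (Nfkbie, ENSMUSG00000023947, plus strand, 6 exons), chr16:55811375-55838899 (Nfkbiz, ENSMUSG00000035356, minus strand, 14 exons), chr7:19808462-19822770 (Bcl3, ENSMUSG00000053175, minus strand, 9 exons) and chr10:19000910-19015657 (Tnfaip3, ENSMUSG00000019850, minus strand, 9 exons). Relb and Bcl3 are thus close neighbours on chromosome 7, and the other genes are spread over 7 chromosomes.

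Because the regulators are textbook NF-kB targets, their promoters were searched for the kB consensus site on both strands. RefSeq promoter windows of 300 bases (250 before the annotated start and 50 after it, GRCm38.p6) were found for 7 of the 10 genes, and 6 of these 7 held at least 1 match. Rela was the gene without a match in its window, and Nfkb1, Relb and Nfkbiz had no window. Among the genes of the whole RefSeq table, 9.55% had a match, and among those tested for expression 12.3%. The following stretches of 30 bases are read 5′ to 3′ on the strand of the gene, with the matching 10 bases in capitals, with 1 or 2 shown for each gene that had a match.
Nfkbia: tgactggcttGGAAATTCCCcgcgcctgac
Nfkbie: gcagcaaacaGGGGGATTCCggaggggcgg
Nfkb2: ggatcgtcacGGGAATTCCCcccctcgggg
Nfkb2, nearer site: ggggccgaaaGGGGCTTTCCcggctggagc
Rel: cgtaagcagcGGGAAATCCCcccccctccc
Tnfaip3: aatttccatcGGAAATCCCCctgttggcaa
Bcl3: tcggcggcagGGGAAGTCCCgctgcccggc
The Nfkbia stretch is chr12:55492657-55492686 on the minus strand, and its match begins 29 bases before the start. The Nfkbie stretch is chr17:45555584-45555613 on the plus strand, with the match 106 bases before the start. The Nfkb2 stretches are chr19:46304688-46304717 and chr19:46304716-46304745 on the plus strand, and their matches begin 39 and 11 bases before the same start. All 4 of these lie upstream of the start they are counted from. The Rel stretch is chr11:23771042-23771071 on the minus strand, 92 bases before the start, and the Tnfaip3 stretch is chr10:19015403-19015432 on the minus strand, 12 bases before it. The Bcl3 stretch is chr7:19822734-19822763 on the minus strand, and its match lies just inside the transcript, 2 bases after the start. The palindrome-like matches of Nfkb2, Rel and Bcl3 read as the consensus on both strands. Nfkb2 held 5 distinct matches over 3 annotated starts, Rel 2 and Tnfaip3 2, some of which overlap each other. A match describes letters in a window and is not a measured binding site.

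The libraries were of similar depth, from 16724241 to 19747909 counts, and between 15468 and 16031 genes had a count in a library. The 10 most abundant genes took 17.2% and 18.5% of the counts in the libraries numbered 1 and 16.7% and 16.8% in those numbered 2. Mitochondrial genes took 2.65% and 2.67% in the libraries numbered 1 and 2.40% and 2.56% in those numbered 2, so both shares were slightly lower in number 2. The macrophage identity of the samples was clear from the summed level of 10 markers, which lay between 21247 and 26583 CPM (counts scaled by the library total and a TMM factor) in every library. The 10 neutrophil markers summed to between 22.2 and 35.5 CPM in a library, with Elane and Mpo at 0 counts in all 4 libraries and 4 of the 10 above the filter. The 10 stromal markers summed to 80.5 and 93.8 CPM in WT and 354 and 331 CPM in KO. G3bp1, the targeted gene, had 104 and 180 CPM in WT and 70.1 and 117 CPM in KO. By edgeR this was -0.61 on the log2 scale (SE 0.40, adjusted p 0.904), and it lay between -1.02 (without KO replicate 2) and -0.19 (without WT replicate 2) when a library was left out. Within each number G3bp1 was lower in KO, at log2 ratios of -0.57 (number 1) and -0.63 (number 2). The libraries labelled KO thus kept much of the G3bp1 signal, and every direction given for KO rests on the labels. The paper reports efficient loss of G3bp1 mRNA and protein in bone marrow-derived macrophages of these mice. Counts per gene do not show whether the remaining reads came from the deleted exons. Fewer cells of a type and less RNA per cell cannot be told apart in such bulk samples.

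The libraries separated by their replicate number before they separated by genotype, and the NF-kB genes split by the number as well. In a principal component analysis of the 12418 genes that passed a filter on low counts, both libraries numbered 1 stood apart from both numbered 2 on the first component (56.5% of the variance). The second, with 34.7%, set WT apart from KO. All 10 NF-kB genes passed the filter, and all 10 were higher in both libraries numbered 2 than in both numbered 1, an arrangement found for 25.2% of the tested genes. The groups of the study, WT and KO, overlapped for all 10. Over all tested genes, KO lay above WT without overlap for 20.0% and below it for 16.9%.

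**Figure D1:**
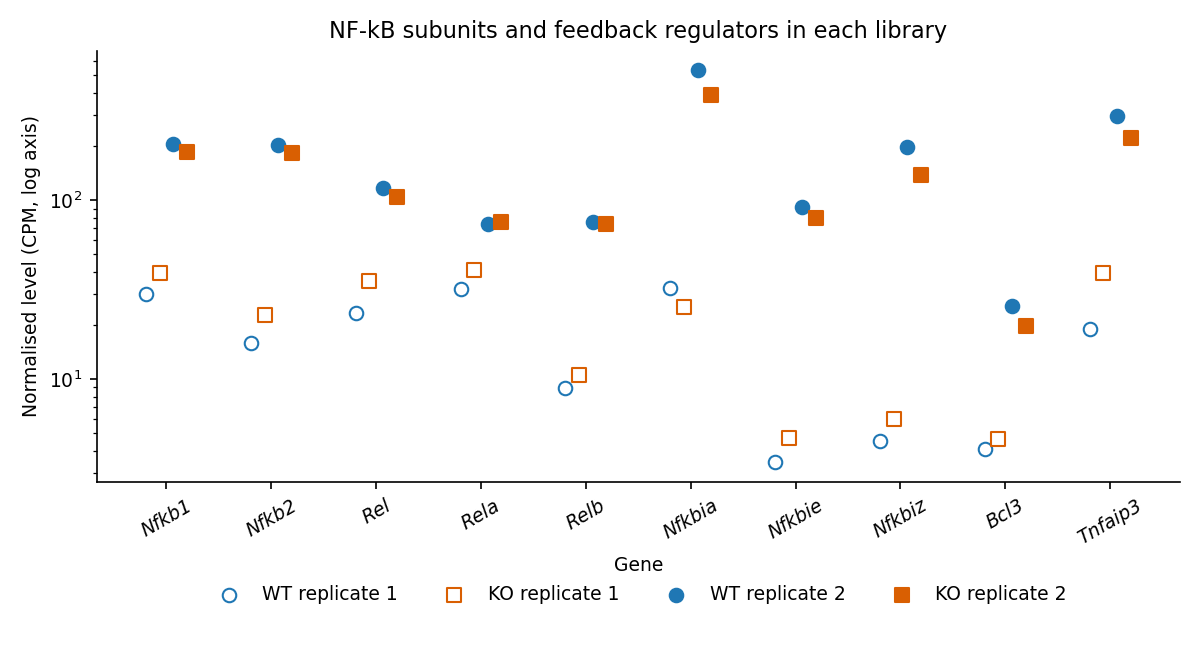
Normalised level of the 10 NF-kB genes in each library, as CPM on a log axis, with circles for WT, squares for KO, open symbols for replicate 1 and filled symbols for replicate 2. For every gene both filled symbols lie above both open ones, while circle and square of one number lie closer together, the widest pair being Tnfaip3 in number 1 (19.1 and 39.5 CPM).

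Among the inhibitors, Nfkbia, which encodes IkBalpha, the IkB protein that shuttles dimers back out of the nucleus, had 522 and 475 counts in WT and KO replicate 1 and 8490 and 7640 counts in WT and KO replicate 2. The level was thus 32.2 and 25.5 CPM in the libraries numbered 1 and 533 and 388 CPM in those numbered 2. Nfkbie, which encodes IkBepsilon, a cytoplasmic inhibitor mainly of dimers with Rel and Rela, had 56 and 88 counts in the libraries numbered 1 (WT, KO) and 1459 and 1569 in those numbered 2. For both inhibitors the difference between the numbers was present in both genotypes, 16.6-fold in WT and 15.2-fold in KO for Nfkbia, and 26.5-fold and 16.9-fold for Nfkbie. In each genotype the libraries of the 2 numbers stood far apart, and the genotypes of 1 number stood close.

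The nuclear members of the IkB family behaved unequally. Nfkbiz, which encodes IkBzeta, a coactivator needed for a set of secondary inflammatory genes such as Il6, had 73 and 112 counts in WT and KO replicate 1 and 3151 and 2742 counts in WT and KO replicate 2. This was 43.9-fold in WT and 23.2-fold in KO, the widest of the 10 genes. Bcl3, whose protein binds p50 and p52 homodimers in the nucleus, had 66 and 86 counts in the libraries numbered 1 and 409 and 390 in those numbered 2, or 6.31-fold in WT and 4.29-fold in KO. Bcl3 was the least abundant of the 10 in the libraries numbered 2. Antisense genes (Gm16174 and Gm16175) overlap Bcl3 and the opposite-strand gene Psd overlaps Nfkb2, and as the use of strand in counting is not given, their reads cannot be told apart from those of Bcl3 and Nfkb2.

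Tnfaip3 encodes A20, an enzyme that edits ubiquitin chains and ends signalling to the IkB kinase, and its KO and WT libraries numbered 1 stood farthest apart of the 10 genes. It had 310 and 736 counts in WT and KO replicate 1, or 19.1 and 39.5 CPM, and 4707 and 4399 counts in WT and KO replicate 2, or 295 and 223 CPM. The KO library was 2.07-fold above WT within number 1 and 0.757 of WT within number 2. Between the numbers the difference was 15.5-fold in WT and 5.66-fold in KO, so the KO libraries spanned a smaller range than the WT libraries.

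Of the subunits, Nfkb2, the precursor of p52 in the non-canonical pathway, differed most. It had 258 and 427 counts in WT and KO replicate 1 and 3236 and 3628 in WT and KO replicate 2, 12.8-fold in WT and 8.04-fold in KO. Relb, the usual partner of p52, followed with 145 and 196 counts against 1204 and 1450, or 8.45-fold in WT and from 10.5 to 73.7 CPM in KO. Nfkb1, the precursor of p50, had 488 and 732 counts against 3283 and 3654, or 6.85-fold and 4.73-fold. In all 3 genes both genotypes showed the difference. Rel, the subunit prominent in lymphocytes and in Il12b transcription, had 381 and 659 counts against 1862 and 2050, or 4.98-fold and 2.94-fold. Rela, whose protein p65 is the main activating subunit, had 521 and 763 counts against 1176 and 1490, or 2.30-fold in WT and 1.85-fold in KO. Rela showed the smallest difference of the 10 genes.

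The difference between the numbers was tested with a model that held genotype as the other term, chosen after the values were seen. Calls by edgeR's quasi-likelihood test needed a log2 change beyond 1 in either direction and an adjusted p below 0.05. All 10 genes were called higher in the libraries numbered 2, against 5.51% of the tested genes called higher and 8.97% called in either direction. The log2 fold change was 4.98 for Nfkbiz (SE 0.28), 4.39 for Nfkbie (SE 0.28), 3.99 for Nfkbia (SE 0.26), 3.34 for Nfkb2 (SE 0.25) and 3.21 for Tnfaip3 (SE 0.25). These 5 genes exceeded 3 on the log2 scale, as did 0.990% of the tested genes. The other genes followed at 2.94 for Relb (SE 0.26), 2.51 for Nfkb1 (SE 0.24), 2.37 for Bcl3 (SE 0.26), 1.93 for Rel (SE 0.24) and 1.04 for Rela (SE 0.24). The 95% intervals of Nfkbiz and Nfkbie overlapped, while that of Rela, 0.58 to 1.51, lay below that of every other gene but Rel, which began at 1.46. The median of the 10 was 3.08, beside -0.020 over all tested genes.

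The adjusted p of edgeR ran from 2.33e-68 for Nfkbiz to 0.00018 for Rela. With 1 residual degree of freedom per gene, this fit took its spread from all genes together. With the number as the only term, edgeR called 9 of the 10 genes, with adjusted p from 0.00542 to 0.0240, beside 3.25% of all genes (2.57% higher), and Rela kept a log2 fold change of 1.03 at an adjusted p of 0.0636. The number is not a treatment or a batch by the labels, and which property of the cells or samples it follows cannot be told from these files.

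**Figure D2:**
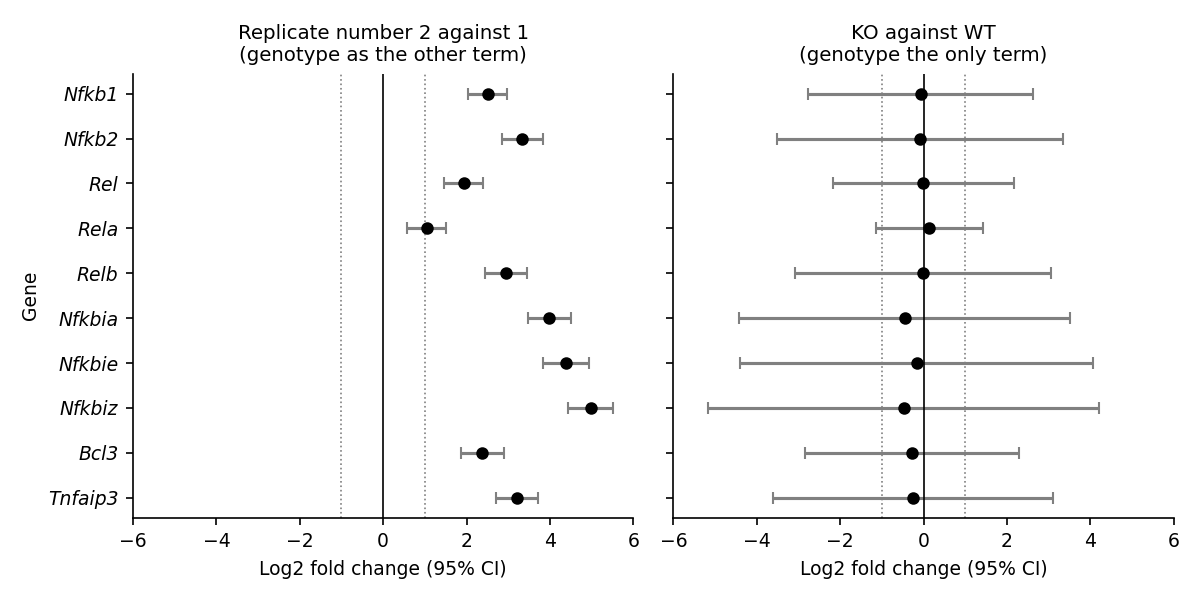
Log2 fold changes with 95% confidence intervals (edgeR quasi-likelihood) for libraries numbered 2 against 1 (left) and for KO against WT (right), with dotted lines at the minimum change of 1 in either direction. On the left all 10 genes lie above 1, from 1.04 for Rela to 4.98 for Nfkbiz, and on the right all intervals include 0.

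Levels were compared between genes per kilobase of the main GENCODE transcript, as CPM per kilobase, with the values of WT and KO in this order. In the libraries numbered 1, Nfkbia was highest at 20.4 and 16.2, followed by Rela at 11.8 and 15.1 and Nfkb1 at 7.31 and 9.54. These 3 did not overlap. Tnfaip3 (4.32 and 8.93), Nfkb2 (4.14 and 5.96), Relb (4.05 and 4.76) and Rel (3.15 and 4.74) overlapped with their neighbours in this order, and Tnfaip3 also with Nfkb1. Bcl3 (2.20 and 2.49), Nfkbie (1.42 and 1.94) and Nfkbiz (1.09 and 1.46) were lowest, and the last 2 overlapped. In the libraries numbered 2 the order had changed. Nfkbia was again highest at 338 and 246, and Tnfaip3 (66.8 and 50.5), Nfkb2 (52.8 and 47.9), Nfkb1 (50.05 and 45.1) and Nfkbiz (48.1 and 33.9) came next, each overlapping its neighbour. Nfkbie (37.6 and 32.7) overlapped Nfkbiz, and Relb (34.2 and 33.3) overlapped Nfkbie. Rela, second in the libraries numbered 1, was eighth at 27.2 and 27.9, above Rel (15.7 and 13.9) and Bcl3 (13.9 and 10.7), which nearly met. Nfkbiz, last in the libraries numbered 1, had moved to the fifth place.

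These levels depend on the transcript length used. The authors' FPKM (fragments scaled by gene length and library total) implied a gene length of 16227 bases for Nfkb1 and 13958 for Tnfaip3, where the main transcripts have 4117 and 4422 bases. Their FPKM was accordingly 1.77 to 11.95 for Nfkb1 and 1.31 to 19.9 for Tnfaip3. For Rel and Rela the implied lengths, 7466 and 2716 bases, equalled those of the main transcripts. The order of the levels changed with the length, since by the mean FPKM of the libraries numbered 2 Rela (26.7) stood above Nfkbiz (22.7), Tnfaip3 (17.9), Rel (14.3), Relb (13.1) and Nfkb1 (11.7).

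The comparison of the study asked which genes differed between macrophages with and without G3bp1. None of the 10 NF-kB genes was called between KO and WT by edgeR's quasi-likelihood test, which called 0% of the 12418 genes. The paper does report differentially expressed genes for this comparison by edgeR, without naming which of edgeR's tests was used. Of the 10 genes 0 had an unadjusted p under 0.05, and the edgeR exact test and the DESeq2 Wald test called 0 of them, beside 1.84% and 1.46% of all genes. Over all genes, 823 had an unadjusted p under 0.05 (6.63%). The log2 fold changes of the 10 genes lay between -0.48 for Nfkbiz (SE 1.85) and 0.14 for Rela (SE 0.50), with a median of -0.12 beside 0.041 over all tested genes. The adjusted p of edgeR lay between 0.988 and 0.999.

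These intervals were too wide to show that the genotypes were alike. The 95% interval was -1.14 to 1.42 for Rela, the narrowest, and -5.17 to 4.22 for Nfkbiz, the widest, and each genotype held 1 library of each number. Leaving out a single library moved the value of each of the 10 genes across 0. The median was 2.42 without WT replicate 2 and -2.00 without KO replicate 2.

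Within each number, the ratio of KO to WT could be read without the difference between the numbers, although with a single library per genotype. Within number 1 the KO library was higher for 9 of the 10 genes, the exception being Nfkbia with a log2 ratio of -0.34. The other ratios ran from 0.18 for Bcl3 to 1.05 for Tnfaip3, and Rel (0.59) and Nfkb2 (0.53) were next to Tnfaip3. Over all tested genes, 57.2% were higher in KO within number 1. Within number 2 the KO library was lower for 9 of the 10 genes, the exception being Rela at 0.04, and 50.2% of the tested genes were lower. The ratio there was -0.51 for Nfkbiz, -0.46 for Nfkbia, -0.40 for Tnfaip3 and -0.37 for Bcl3, and between -0.20 and -0.04 for the others below 0. These 4 regulators were lower by more than any subunit was.

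**Figure D3:**
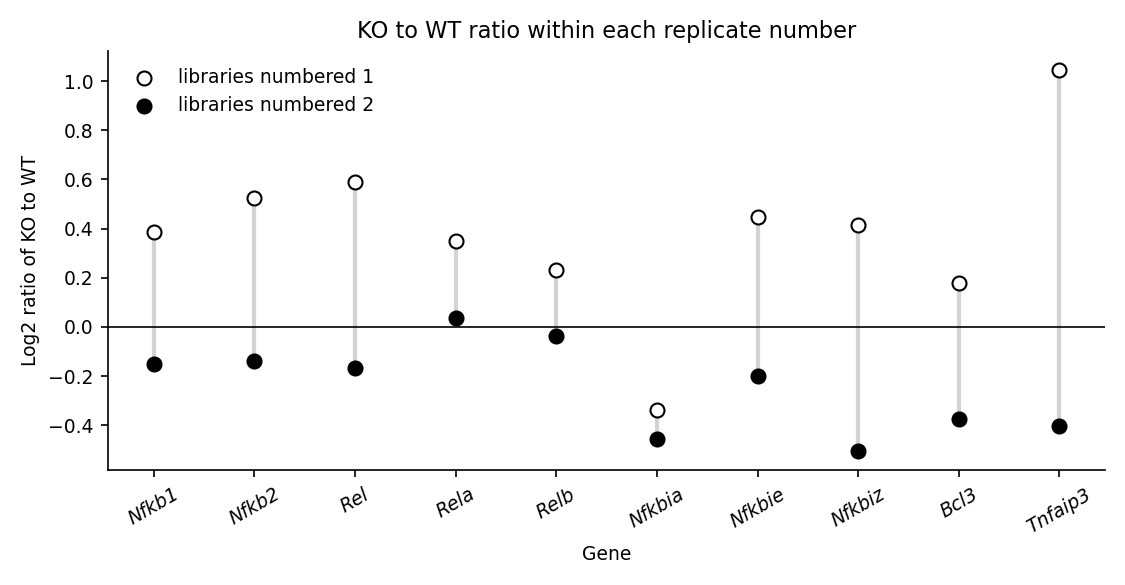
Log2 ratio of KO to WT within the libraries numbered 1 (open circles) and within those numbered 2 (filled circles) for each of the 10 genes, joined by a grey line. The open circle lies above the filled one for all 10 genes, most widely for Tnfaip3 (1.05 against -0.40).

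For 8 of the 10 genes the KO library was above WT within number 1 and below it within number 2, an order shared by 21.2% of the tested genes and by 39.0% of the 684 genes called higher in the libraries numbered 2. The difference between the numbers was larger in WT than in KO for all 10 genes, beside 56.0% of the tested genes and 78.2% of those 684. Each combination of genotype and number had 1 library, so whether the genotypes differ in this respect could not be tested.

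The other genes of the pathway were read from a list of 45 receptor adaptors, kinases, ubiquitin ligases and further inhibitors, all of which were tested. This list was drawn up with earlier results of these data known. Between the numbers, 10 of the 45 were called higher and 0 lower in the libraries numbered 2 (22.2%, beside 5.51% of all genes called higher), and their median log2 fold change was 0.30. The following were picked after their values were seen. Tnip3, an A20-binding inhibitor, had 22.8 and 10.6 CPM in WT and KO replicate 1 and 140 and 114 CPM in WT and KO replicate 2 (log2 fold change 3.01, SE 0.25). Its relative Tnip1 (1.98, SE 0.24), Irak3, a brake on Toll-like receptor signalling (1.89, SE 0.24), the kinase gene Ikbke (1.85, SE 0.24) and Nfkbib, which encodes IkBbeta (1.77, SE 0.23), followed. The called genes also included Traf2, Traf3, Traf5, Tank and Myd88. The genes of the core IkB kinase complex, Chuk, Ikbkb and Ikbkg, were not called, with log2 fold changes of 0.48, 0.16 and 0.38, and neither was Map3k14, the kinase of the non-canonical pathway, at 0.087. Of the 5 ubiquitin ligase genes 0 were called.

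Between genotypes, 0 of the 45 pathway genes were called by edgeR and 0 had an unadjusted p under 0.05. Where KO and WT did not overlap, KO was above in 9 (20.0%, as for 20.0% of all genes) and below in 5 (11.1%, beside 16.9%). By the rule for naming, the genes above were Xiap, Tab3, Tab1 and Map3k7, which take part in signalling to the IkB kinase. Xiap had 17.1 and 22.5 CPM in WT and 23.4 and 61.2 CPM in KO (log2 fold change 1.10, SE 0.49, edgeR adjusted p 0.825). Its value came mainly from KO replicate 2, as it was 0.24 without that library and 1.63 without KO replicate 1. Tab3 (0.42, SE 0.26), Tab1 (0.35, SE 0.25) and Map3k7, the gene of the TAK1 kinase that Tab1 and Tab3 bind (0.35, SE 0.26), had KO above WT in both numbers. Leaving out 1 library brought Map3k7 to 0.13 and Tab3 to 0.27 (without WT replicate 1) and Tab1 to 0.19 (without KO replicate 1). The genes below included Commd1, a regulator of Rela turnover (-0.61, SE 0.30), whose value rested mainly on number 1 (a log2 ratio of -1.05, beside -0.12 within number 2) and was -0.27 without WT replicate 1. The others named by the rule were Sharpin (-0.16, SE 0.21) and Otulin (-0.15, SE 0.22), which build or remove linear ubiquitin chains, and Ticam1, the TRIF adaptor (-0.14, SE 0.21). Sharpin was -0.099 without WT replicate 1 and Otulin -0.060 without KO replicate 1.

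Genes that NF-kB is known to induce, also listed with earlier results of these data known, showed the same split between the numbers. Of 50 target genes 48 were tested, and Il23a and Csf2 were too low, with at most 4 and 32 counts. All 48 had a log2 fold change above 0 for number 2 against 1, and 43 were called higher (89.6%, beside 5.51% of all genes), with a median of 2.89. Both libraries numbered 2 lay above both numbered 1 for 45 of the 48 (93.8%, beside 25.2% of all genes), the exceptions being Zfp36, Csf1 and Saa3. The following examples were picked after their values were seen. Tnf had 122 and 98 counts in WT and KO replicate 1 and 21261 and 14019 counts in WT and KO replicate 2. Il1b had 2 and 3 counts against 6783 and 1294, and Cxcl2, a neutrophil-attracting chemokine gene, had 25 and 17 against 11011 and 6385. Il1b was thus at or below 3 counts in both libraries numbered 1, while Tnf and Cxcl2 were measurable there at a low level. Icam1, an adhesion receptor gene, had 17.0 and 19.2 CPM against 683 and 627 CPM, Tlr2 had 21.3 and 22.4 CPM against 661 and 581 CPM, and Cd40 had 1.97 and 2.36 CPM against 128 and 76.8 CPM. Sod2 had 121 and 85.8 CPM in the libraries numbered 1 and 1067 and 901 CPM in those numbered 2.

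**Figure D4:**
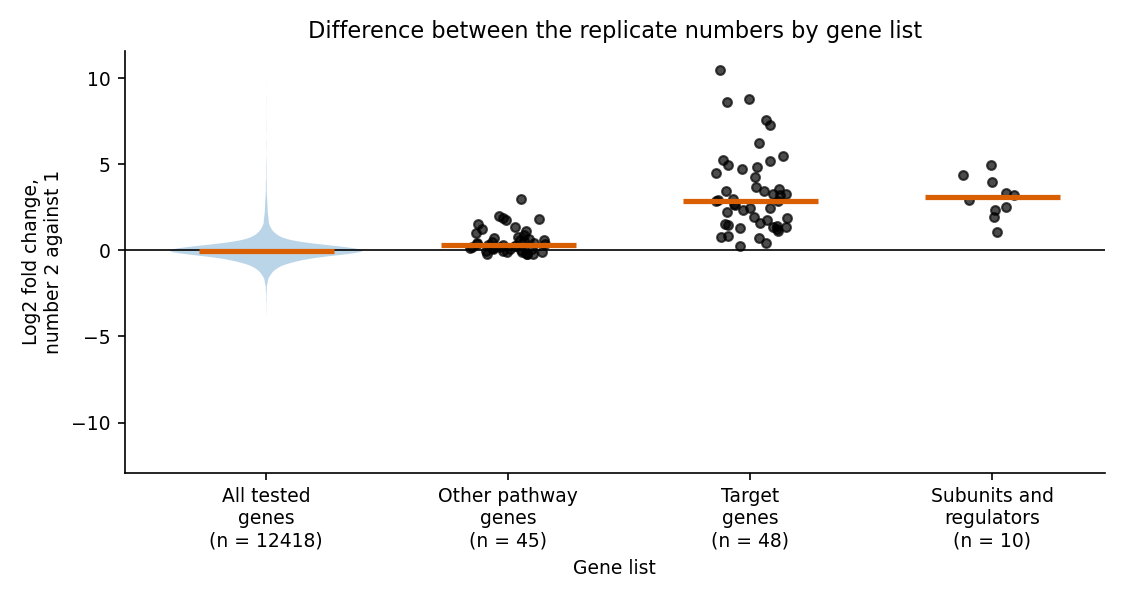
Log2 fold change of libraries numbered 2 against 1 (edgeR, genotype as the other term) for all tested genes (shape showing their distribution), the other pathway genes, the target genes and the 10 subunits and regulators (1 point per gene, orange bar at the median). The medians are -0.020, 0.30, 2.89 and 3.08.

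With genotype the only term, 0 of the 48 target genes were called between KO and WT by edgeR, and 0 had an unadjusted p under 0.05. With the replicate number as a further term, some targets were called lower in KO, as given in the last section. Of the 48 targets, 1 had KO above WT without overlap and 1 below (2.08% each, beside 20.0% and 16.9% of all genes). Csf1, the gene of macrophage colony-stimulating factor, was the target with both KO libraries above both WT libraries (74 and 175 counts in WT, 211 and 296 counts in KO, log2 fold change 0.76, SE 0.47, edgeR adjusted p 0.904), and leaving out WT replicate 1 brought its value to 0.27. Saa3, an acute-phase protein gene, was the target with both below (515 and 530 CPM in WT, 261 and 456 CPM in KO, log2 fold change -0.54, SE 0.33, edgeR adjusted p 0.899), and its value was -0.047 with a correction for gene length and -0.20 without KO replicate 1. Within number 1, 24 of the 48 targets were higher and 24 were lower in KO. Within number 2, 43 of the 48 were lower in KO (89.6%, beside 50.2% of all genes), among them Il1b (log2 ratio -2.69), Cxcl1 (-2.52), Ccl4 (-1.88) and Ccl3 (-1.26). Each of these ratios set 1 KO library against 1 WT library, and the genes of a list are not replicates of a genotype. The median log2 ratio within number 2 was -0.39 over the targets and -0.18 over the 10 NF-kB genes, and the difference between these lists was not tested.

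The genes whose profile over the 4 libraries was most like the median profile of the 10 NF-kB genes were sought by the root-mean-square difference of their centred log2 CPM. Malt1 was nearest, at 0.051, and its protein is a protease that relays antigen and lectin receptor signals to NF-kB. It had 1127 and 1669 counts in WT and KO replicate 1 and 10459 and 11677 counts in WT and KO replicate 2. Ets2 (0.085), Phldb1 (0.098), Parp8 (0.113) and Fnbp1l (0.126) followed. Of the 10 genes themselves, Relb was nearest to their median profile (0.108), and Nfkbiz (1.01) and Rela (0.977) were farthest from it.

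Other measures that moved or did not move with the number were read beside these results. Examples among the macrophage markers, not a full count, were as follows. Cd14 (log2 fold change 2.39, SE 0.24) and Adgre1 (1.02) were called higher in the libraries numbered 2, and Fcgr1 (-1.40) was called lower. Of the 10 dendritic cell markers 5 were tested and 3 were called higher (Ccl22, Zbtb46 and Fscn1), beside 5.51% of all genes, while Xcr1 had at most 1 count and Flt3 between 6 and 9 counts in a library. Their summed level was 8.57 and 17.0 CPM in the libraries numbered 1 and 33.6 and 35.2 CPM in those numbered 2. B cell markers summed to 254 and 244 CPM in the libraries numbered 1 and to 274 and 218 CPM in those numbered 2, and 0 of the 7 tested were called, beside 8.97% of all genes in either direction. The 10 T and NK cell markers summed to at most 3.88 CPM in a library, neutrophil markers to 35.5 and 33.4 CPM in WT and 22.2 and 24.7 CPM in KO, and mast cell and basophil markers to 117 and 106 CPM in WT and 45.9 and 55.0 CPM in KO, with 1 call among the 12 tested genes of these 3 lists, again beside 8.97% (Cxcr2, lower in the libraries numbered 2). G3bp1 itself was 1.73-fold higher in WT replicate 2 than in WT replicate 1 and 1.66-fold higher in KO replicate 2 than in KO replicate 1. Both KO libraries lay below both WT libraries for 6 of the 7 tested B cell markers, 5 of the 7 mast cell and basophil markers and 2 of the 4 neutrophil markers, beside 16.9% of all genes. The part of these markers, and of the shares of mitochondrial and abundant genes, in the differences of the NF-kB genes was not tested.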

How the data were processed

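RNA from 4 cultured macrophage libraries was sequenced on an Illumina NovaSeq. The authors filtered reads with Seqtk, aligned them with HISAT2 2.0.4 and counted fragments per gene with StringTie 1.3.3b. The authors deposited raw counts and an FPKM value per gene, and FPKM carried only gene length and library total (implied lengths differed by at most 0.0034% between libraries). The submitters' processing notes name mm39, but 27686 of 34267 gene identifiers shared with GENCODE M21 had its GRCm38 start and end, so GRCm38 positions are given.

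The tests were run in edgeR 4.0.16 under R 4.3.3. After filterByExpr (at least 10 counts, and 15 in total), counts were scaled by TMM and tested two-sided with glmQLFit and glmQLFTest and Benjamini-Hochberg adjustment over 12418 genes, with genotype the only term, as the study's methods name no other. SE and intervals came from the F statistic. CPM use TMM-scaled totals, and log2 ratios within a number had 0.5 counts added. On this scale, counting error alone allows 0.152 to 0.188 CPM (3 counts) for a count of 0. The code was tested on simulated data. No library was a copy of another, since every pair had a chi-square of at least 23.5 per degree of freedom.

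The genes and lists were chosen with earlier results of these data known. Named were the 10 genes, G3bp1, up to 4 genes in each direction of the pathway and target lists (non-overlapping genotypes, smallest unadjusted p) and the 5 genes of most similar profile. Where a symbol named more than 1 gene, the more abundant was used. The test of number 2 against 1 was added after seeing the data. Alternatives were DESeq2 1.42.0 size factors or Wald test, other filters, the edgeR exact test, limma 3.58.1 on log2(FPKM + 1), a loess correction for gene length (span 0.5), a replicate block and leaving out each library. The value of 1 macrophage marker is not reported here.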

Additional observations from a re-analysis of the deposited data

How the results depend on the processing

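What the number marks is not labelled, and with 2 pairs a pairing of the libraries was not established. Deviations from the genotype means correlated at 0.701 between same-numbered libraries. With the replicate block, 664 of all genes (5.35%), 5 of the target genes and 0 of the 10 NF-kB genes were called between genotypes. The 5 targets were all lower in KO, as were 1.37% of all genes, and 21 targets and 18.3% of all genes had an unadjusted p under 0.05. The replicate block turned the sign of 6 small values, to 0.11 for Nfkb1, 0.18 for Nfkb2, 0.20 for Rel, 0.088 for Relb, 0.063 for Nfkbie and 0.30 for Tnfaip3, with edgeR adjusted p from 0.579 to 0.935. The median of the 10 genes was then 0.099, with 7 above 0 and 3 below. With the block, the edgeR adjusted p was 0.0853 for G3bp1, 0.00217 for Xiap (0.96) and 0.0181 for Csf1 (0.86), and with the length correction added 0.0345, 0.209 and 0.165. With the replicate block and gene length correction, 359 of all genes and 2 targets were called, and Nfkb2 (0.14), Rel (0.038), Nfkbie (0.088), Tnfaip3 (0.032) and Otulin (0.059) turned sign.

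In the comparison of KO with WT, the edgeR exact test called 229 of all genes and the DESeq2 Wald test 181. The gene length correction turned Otulin to 0.056. Limma on log2(FPKM + 1) turned Nfkb1 (0.18), Nfkb2 (0.29), Rel (0.29), Relb (0.17), Nfkbie (0.16), Tnfaip3 (0.27) and Ticam1 (0.014), with a median of 0.17 over the 10 genes. No alternative called any of the 10 genes. Leaving out each library gave a range of -2.00 to 2.42 for their median, -1.59 to 1.87 for Nfkb1, -2.26 to 2.67 for Nfkb2, -0.99 to 1.54 for Rel, -0.37 to 0.83 for Rela, -2.01 to 2.20 for Relb, -3.47 to 2.65 for Nfkbia, -3.33 to 3.58 for Nfkbie, -4.07 to 3.98 for Nfkbiz, -1.69 to 1.55 for Bcl3 and -1.99 to 2.75 for Tnfaip3. Csf1 was 1.498 without WT replicate 2, and Saa3 was -1.003 without KO replicate 2. These fits assume that the lone library of a genotype varies like the others.

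For number 2 against 1, none of the 10 genes changed direction. The number as the only term called 404 of all genes in place of 1114, and no minimum fold change 1974. Rela fell below the minimum with the gene length correction (0.99), and lay between 0.86 and 1.22 when a library was left out. Without WT replicate 2 (1.03) or KO replicate 2 (1.01) its edgeR adjusted p was 0.206 and 0.218. These fits called 9 to 10 of the 10 genes at a median of 2.76 to 3.33, 6 to 9 of the pathway genes (6 without WT replicate 2), 26 to 41 of the targets (26 without WT replicate 1) and 386 to 849 of all genes. The causes of these changes were not tested.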
